A study of Mus musculus with 6 samples.

Results

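Dmrt1 and the genes beside it on mouse chromosome 19 were followed in fetal testes with and without a functional Dmrt1. The 10 genes taken were Dmrt1, Dmrt2, Dmrt3, Kank1, Dock8, Cbwd1, Pgm5, Smarca2, Vldlr and Glis3. They were measured by every probe set, that is every group of array probes summarised to 1 value, whose platform annotation names exactly 1 gene and that gene is on the list. This gave 23 probe sets of 45101 on the array, with at least 1 for each of the 10 genes, out of 18194 genes that the annotation names in this way. In the RefSeq order of protein-coding genes the list reads Pgm5, Cbwd1, Dock8, Kank1, Dmrt1, Dmrt3, Dmrt2, Smarca2, Vldlr and Glis3, with other genes in between.

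The arrays held RNA from testes of mouse embryos at E13.5, shortly after the testis forms, with 3 Dmrt1 null and 3 control arrays, each labelled a biological replicate. All animals came from an outcross to the 129S6/SvEvTac strain, in which Dmrt1 mutants often form teratomas according to the series' design text. Null samples are called Dmrt(-,-) in their titles and Dmrt1 (-/-) in their descriptions, but their genotype entry reads Dmrt(flox/flox). Control samples are called wt in their titles, but Dmrt1 (+/-) in their descriptions and in the design text, and Dmrt(+/-) in the genotype entry, so they may carry 1 null copy. The sources used here give no Cre driver, deleted exon or number of embryos per array.

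DM domain proteins bind DNA through a zinc-coordinating motif first described in the fly protein Doublesex and the worm protein MAB-3, and several of them act in sexual development. In the mouse testis Dmrt1 is made in Sertoli cells, the supporting cells of the tubules, and in germ cells. Dmrt3 and Dmrt2 lie directly next to Dmrt1 in the same gene cluster and encode proteins of the same family. Dmrt3 is known for its role in spinal interneurons that coordinate gait, and Dmrt2 for patterning of the somites and the axial skeleton.

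The promoters of Dmrt3 and Dmrt2 are shown because these 2 neighbours stood higher in the null arrays, as described further on. Each stretch runs from 250 bases before to 50 after a RefSeq start site (build GRCm38.p6, plus strand). Capitals mark the CCAAT box, searched as CCAAT on both strands, so that a box on the minus strand reads ATTGG. Dmrt3 covers chr19:25610287-25610586 and Dmrt2 covers chr19:25672161-25672460.
Dmrt3: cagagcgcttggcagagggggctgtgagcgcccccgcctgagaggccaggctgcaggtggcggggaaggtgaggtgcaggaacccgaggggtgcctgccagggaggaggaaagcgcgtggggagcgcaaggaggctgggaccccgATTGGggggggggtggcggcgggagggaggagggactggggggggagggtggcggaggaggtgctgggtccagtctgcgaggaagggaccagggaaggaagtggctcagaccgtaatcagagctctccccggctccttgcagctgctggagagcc
Dmrt2: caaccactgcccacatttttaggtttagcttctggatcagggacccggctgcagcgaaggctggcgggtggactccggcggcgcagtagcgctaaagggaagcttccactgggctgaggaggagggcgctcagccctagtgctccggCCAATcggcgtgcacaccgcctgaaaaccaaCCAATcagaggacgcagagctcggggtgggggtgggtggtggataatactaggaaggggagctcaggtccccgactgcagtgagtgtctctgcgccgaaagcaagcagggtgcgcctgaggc
Dmrt2 held 2 CCAAT boxes, which began 103 and 72 bases before the start site, and Dmrt3 held 1 on the minus strand. A CCAAT box occurred in 37.4% of all 32851 promoters in the RefSeq table. The letters ACANTGT, the core of sites bound by DM domain proteins, were searched on both strands, where the reverse complement reads the same, and were found in neither promoter, against 7.54% of all promoters. Of the 10 genes, 8 matched the promoter table with 9 promoters, and 0 of the 9 held ACANTGT. The other motifs searched on both strands were TATAAA and GGGCGG, found in neither of the Dmrt promoters, against 13.6% and 35.7% of all promoters. Dmrt1 and Cbwd1 had no entry in the table.

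Values are GCRMA intensities, corrected for background and scaled across arrays before deposit. They are comparable between arrays for 1 probe set, not between probe sets. Where intensities are summed over a list of marker genes, the sums are compared between arrays only. Such sums are led by the brightest probe sets and are not amounts of a cell type. Each difference is the mean log2 intensity of null arrays minus that of control arrays. The test is limma with Benjamini-Hochberg adjustment over the 22082 probe sets whose mean log2 intensity reached 4 or more. Of the 23 probe sets 16 passed this filter, at least 1 for each gene. The dimmest that passed was a Vldlr probe set with a mean log2 value of 4.67, and the brightest that did not was a Dmrt3 probe set with 3.39. Array medians were 14.6 to 14.8, and 3 arrays per group limit the precision of every value. The ratio of 3' to 5' signal for the Actb control probe sets, a measure of RNA quality, reached 2.75 in null replicate 3 and lay between 1.91 and 2.15 elsewhere.

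The label of the tissue was checked against marker genes, each read from its brightest probe set. All 7 Sertoli cell markers and all 7 germ cell markers passed the filter, among them Sox9, Amh, Ddx4 and Dazl. All 3 measured markers of the mesonephros and its duct, Lhx1, Pax8 and Wnt9b, passed too. Their summed intensity was 771 to 1097 in null arrays and 839 to 1301 in control arrays. The ovarian factor Foxl2 did not pass, with 7.61 to 9.54 in null arrays and 8.51 to 10.1 in control arrays. The other 4 of 5 ovarian pathway genes, Fst, Wnt4, Rspo1 and Bmp2, passed, and the list's summed intensity was 1084 to 1531 in null arrays and 1316 to 1663 in control arrays. The summed intensity of the Sertoli markers was 12486 to 13358 in null arrays and 15499 to 16730 in control arrays, with 3 of 7 members lower. Without Cst9, a Sertoli cell transcript that limma called lower in null testes, the sums were 11626 to 12208 in null arrays and 12559 to 13690 in control arrays. Without Cst9 and Aard they overlapped, at 7228 to 7838 in null arrays and 7029 to 7950 in control arrays. Cst9 and Aard were the Sertoli markers with every null array below every control array. Overlap without them is therefore no test of Sertoli cell content. The median difference over all 7 markers was 0.01 on the log2 scale. That was the value of Ptgds, which gave 4730 to 4750 in null arrays and 4690 to 4710 in control arrays. In bulk tissue, fewer cells of a type and less RNA per cell cannot be told apart.

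Dmrt1 fell in the null testes. Its single probe set, 1423582_at, gave 48.4, 26.9 and 23.8 in null replicates 1, 2 and 3, against 696, 1030 and 796 in control replicates 1, 2 and 3. The groups lay far apart: the highest null array was 3.85 log2 units below the lowest control array. Null replicate 1 kept the most signal, at 5.76% of the control mean, and replicates 2 and 3 kept 3.20% and 2.83%. Detection calls were not used here, so whether the null values lie above background was not tested, and the sources used here do not say whether its probes lie inside the deleted stretch.

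The difference for Dmrt1 was -4.72 with a 95% confidence interval of -5.37 to -4.08 (limma adjusted p = 0.00388, n = 3 per group). No other kept probe set on the array had a more negative difference (0 of 22082). Dmrt1 was the only one of the 16 kept probe sets of the 10 genes that was called, where 0.0272% of all tested probe sets were called. Without control replicate 3 the Dmrt1 difference was -4.75 and no longer called (limma adjusted p = 0.0558, threshold 0.05). The Sertoli marker sums given above were lower in null arrays with Aard included and overlapped without Cst9 and Aard. Germ cell marker sums overlapped, at 9746 to 12448 in null arrays and 9949 to 15928 in control arrays, with 5 of 7 members lower. The part of either list in the Dmrt1 difference was not tested.

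**Figure D1:**
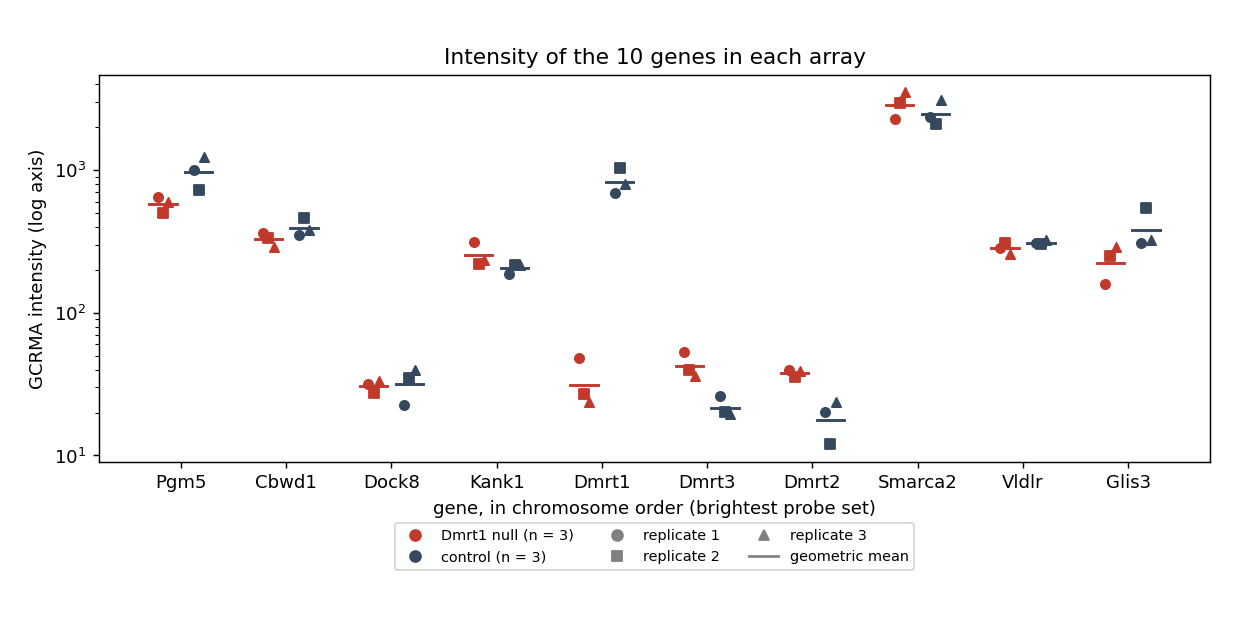
GCRMA intensity (log axis) of the brightest probe set of each of the 10 genes in chromosome order, with 3 Dmrt1 null arrays left of 3 control arrays for each gene and a bar at the geometric mean. Heights may be compared within a gene, not between genes. Dmrt1 separates widely, at 23.8 to 48.4 in null arrays and 696 to 1030 in control arrays, whereas Dmrt3 and Dmrt2 lie higher in null arrays.

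Dmrt3, the next gene after Dmrt1, showed the opposite direction. Its kept probe set, 1440707_at, gave 53.3, 39.7 and 35.8 in null replicates 1, 2 and 3, against 26, 20.2 and 19.4 in control replicates 1, 2 and 3. Every null array was above every control array. The geometric mean was 1.95-fold higher in null testes (95% confidence interval 1.40 to 2.72), a difference of 0.96 with a standard error of 0.21. This was not called (limma adjusted p = 0.773), and 25 of the 22082 kept probe sets had a more positive difference. With 16 added to every intensity the Dmrt3 difference was 0.63, so its size depends on how dim values are treated.

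The other 3 Dmrt3 probe sets lay below the filter, and were read from a limma fit without it. Probe set 1449763_at gave 16.9, 12.1 and 11.4 in null arrays and 8.96, 8.37 and 7.51 in control arrays, a difference of 0.68 without overlap. Probe set 1420182_x_at gave 8.68, 7.56 and 7.49 in null arrays and 5.72, 6.52 and 5.98 in control arrays, a difference of 0.38 without overlap. The dimmest, 1460267_at, gave 2.56 to 2.77 in null arrays and 2.58 to 3.28 in control arrays, with overlap and a difference of -0.06. These 3 probe sets were designed from the same sequence record, and the x in a probe set name marks probes that can bind related transcripts, so these sets are not independent measures. None had an adjusted p below 0.878 in the fit without a filter.

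Dmrt2, the second gene after Dmrt1, was also higher in every null array. Its probe set, 1426867_at, gave 40.0, 35.4 and 39.0 in null replicates 1, 2 and 3, against 20.1, 12.0 and 23.6 in control replicates 1, 2 and 3. The null arrays lay within 0.18 log2 units of each other and the control arrays within 0.98, with control replicate 2 the lowest. The level was 2.13-fold higher in null testes (95% confidence interval 1.42 to 3.20), a difference of 1.09 with a standard error of 0.25, not called (limma adjusted p = 0.773). Only 11 of the 22082 kept probe sets had a more positive difference. Without control replicate 2 the Dmrt2 difference was 0.81, and with 16 added to every intensity it was 0.66. Of 6 somite and skeletal muscle markers, tissue in which Dmrt2 is known to act, only Actc1 passed the filter. Their summed intensity was 42.2 to 79.5 in null arrays and 51.3 to 53.6 in control arrays, and it was highest in null replicate 1, where Actc1 was 43.8. The part of these markers in the Dmrt2 values was not tested. For Dmrt3, 3 of 4 measured neural markers passed the filter, with summed intensities of 110 to 169 in null arrays and 112 to 168 in control arrays.

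**Figure D2:**
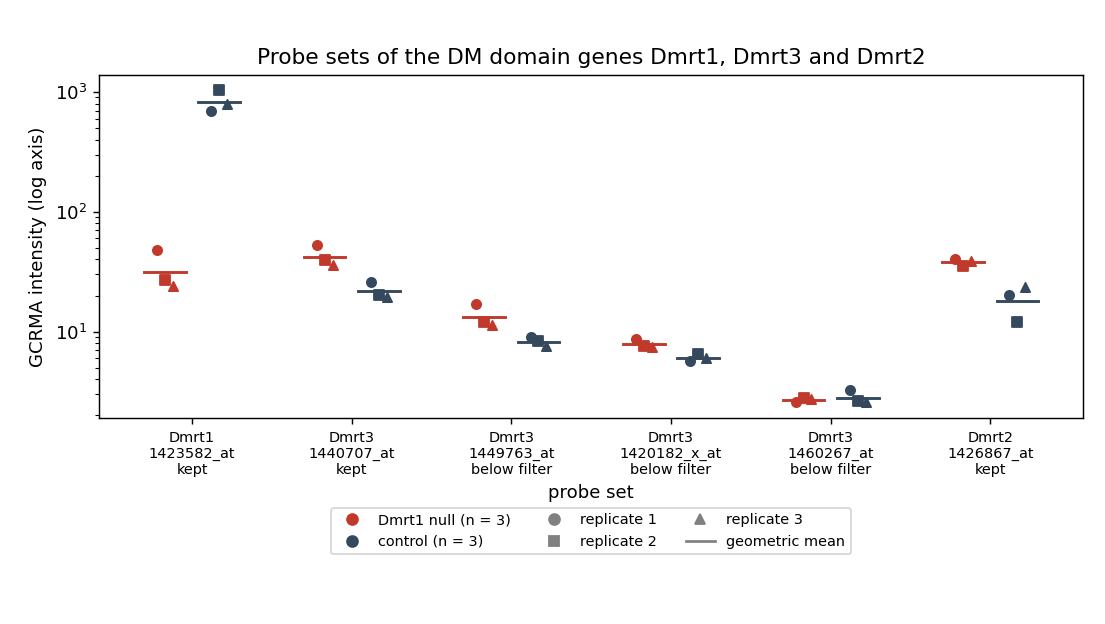
GCRMA intensity (log axis) of each probe set of Dmrt1, Dmrt3 and Dmrt2, with Dmrt1 null arrays left of control arrays (n = 3 each) and a bar at the geometric mean. Probe sets marked as below filter had a mean log2 value under 4. The kept Dmrt3 and Dmrt2 probe sets and 2 dimmer Dmrt3 sets show every null array above every control array, and Dmrt3 1460267_at shows overlap.

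Other DM domain genes, on other chromosomes, had overlapping groups. Dmrta1 was the only other measured member that passed the filter, with 25.3, 29.4 and 47.1 in null arrays and 37.0, 38.7 and 36.5 in control arrays, a difference of -0.19 (limma adjusted p = 0.878). Dmrta2, Dmrtb1, Dmrtc1a and Dmrtc2 lay below the filter, with differences between -0.13 and 0.09. Dmrtc2 and Dmrtb1 are known for roles in meiotic and premeiotic male germ cells of older testes.

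On the other side of Dmrt1 the next gene is Kank1, which encodes an ankyrin repeat protein of the cell cortex that restrains actin assembly. Its kept probe set, 1433742_at, gave 313, 220 and 233 in null replicates 1, 2 and 3, against 188, 217 and 217 in control replicates 1, 2 and 3. The groups did not overlap, but only 0.02 log2 units separated the lowest null array from the highest control array. The difference was 0.29 with a 95% confidence interval of -0.10 to 0.67 (limma adjusted p = 0.776). Without null replicate 1, the highest array, the Kank1 difference was 0.13. A second Kank1 probe set, 1444711_at, lay below the filter at 5.62 to 5.73 in null arrays and 5.49 to 6.26 in control arrays.

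Dock8, an exchange factor for the GTPase Cdc42 best known from leukocytes, was dim. Its kept probe set, 1449419_at, gave 31.9, 27.6 and 33 in null arrays and 22.6, 34.9 and 39.5 in control arrays. The groups overlapped, with a difference of -0.03 and a 95% confidence interval of -0.56 to 0.49. The other 3 Dock8 probe sets lay below the filter at 3.41 to 5.19 in null arrays and 3.03 to 5.55 in control arrays. Markers of macrophages and other leukocytes were lower in null arrays at 5 of 5 members, 0 of them called by limma. Of all 22082 kept probe sets 10620 were lower. The markers' summed intensities were 672 to 734 in null arrays and 819 to 1227 in control arrays. Most of each sum was Mrc1, at 505 to 533 in null arrays and 642 to 968 in control arrays. At Csf1r, Cd68 and Ptprc the groups overlapped. The part of these markers in the Dock8 values was not tested.

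Cbwd1, a gene for a protein of the COBW domain family of metal-binding GTPases, gave 363, 334 and 288 in null replicates 1, 2 and 3, against 353, 458 and 383 in control replicates 1, 2 and 3. The groups overlapped at the lowest control array. Its difference was -0.28 with a 95% confidence interval of -0.62 to 0.07 (limma adjusted p = 0.774), and -0.17 without control replicate 2.

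Pgm5 encodes a relative of phosphoglucomutase that sits at cell adhesions of muscle. Its probe set, 1437871_at, gave 646, 504 and 593 in null replicates 1, 2 and 3, against 1000, 728 and 1240 in control replicates 1, 2 and 3. Every null array was below every control array. The level was 1.67-fold lower in null testes (95% confidence interval 1.22 to 2.29), a difference of -0.74 with a standard error of 0.20, not called (limma adjusted p = 0.773). Summed intensities of smooth muscle markers overlapped, at 1845 to 3503 in null arrays and 2167 to 3541 in control arrays. The part of these markers in the Pgm5 difference was not tested.

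Beyond Dmrt2 comes Smarca2, the ATPase Brm of chromatin remodelling complexes of the SWI/SNF type. Its brighter probe set, 1430526_a_at, gave 2270, 2960 and 3500 in null replicates 1, 2 and 3, against 2340, 2090 and 3090 in control replicates 1, 2 and 3. The groups overlapped, with a difference of 0.21 and a 95% confidence interval of -0.21 to 0.64 (limma adjusted p = 0.828). Single arrays moved this difference: it was 0.07 with null replicate 3 left out and 0.38 with null replicate 1 left out. Leaving out control replicate 2 gave 0.09, and leaving out control replicate 3 gave 0.37. The dimmer one, 1452333_at, gave 64.0, 74.7 and 50.8 in null arrays and 80.5, 57.0 and 65.9 in control arrays, a difference of -0.11 with overlap. The 2 probe sets thus differed in sign, and each interval included 0.

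Vldlr, the very low density lipoprotein receptor, which also takes up the signal of reelin, had 6 probe sets that all passed the filter. All 6 differences were negative, from -0.69 to -0.12, where 10620 of all 22082 kept probe sets were lower. Limma called 0 of the 6, and 1 had an unadjusted p under 0.05. Of all kept probe sets 0.0272% were called and 6.04% had such a p. The sign did not always hold: 1417900_a_at gave 0.024 without null replicate 2. The largest difference was that of 1442169_at. It gave 71.3, 73.3 and 62.4 in null replicates 1, 2 and 3, against 161, 98.4 and 86.9 in control replicates 1, 2 and 3. These groups did not overlap, and control replicate 1 was the highest array. Its difference was -0.69 with a standard error of 0.24 (limma adjusted p = 0.773), and -0.43 without control replicate 1. The brightest, 1434465_x_at, gave 286, 310 and 259 in null arrays and 306, 301 and 323 in control arrays. These overlapped, with a difference of -0.12 and a 95% confidence interval of -0.41 to 0.16. The difference was -0.06 without null replicate 3 and -0.19 without null replicate 2. The 6 probe sets read the same RNA samples and are not replicates of each other.

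Glis3, a zinc finger transcription factor of the Krüppel type needed in pancreas and thyroid, ended the list. Its probe set, 1430353_at, gave 159, 249 and 287 in null replicates 1, 2 and 3, against 310, 545 and 324 in control replicates 1, 2 and 3. Every null array was below every control array, with null replicate 1 the lowest and control replicate 2 the highest. The level was 1.69-fold lower in null testes (95% confidence interval 1.07 to 2.65), a difference of -0.76 with a standard error of 0.28, not called (limma adjusted p = 0.773). Without control replicate 2 the Glis3 difference was -0.50, and without null replicate 1 it was -0.51. Endothelial markers were lowest in both of those arrays, whereas Glis3 was lowest in 1 and highest in the other. Their summed intensities were 1213 in null replicate 1 and 900.3 in control replicate 2, against 2208 to 2460 in the other 4 arrays. Erythroid marker sums were also lowest in these 2 arrays, and germ cell and smooth muscle marker sums were highest there. The part of these markers in the Glis3 difference was not tested.

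**Figure D3:**
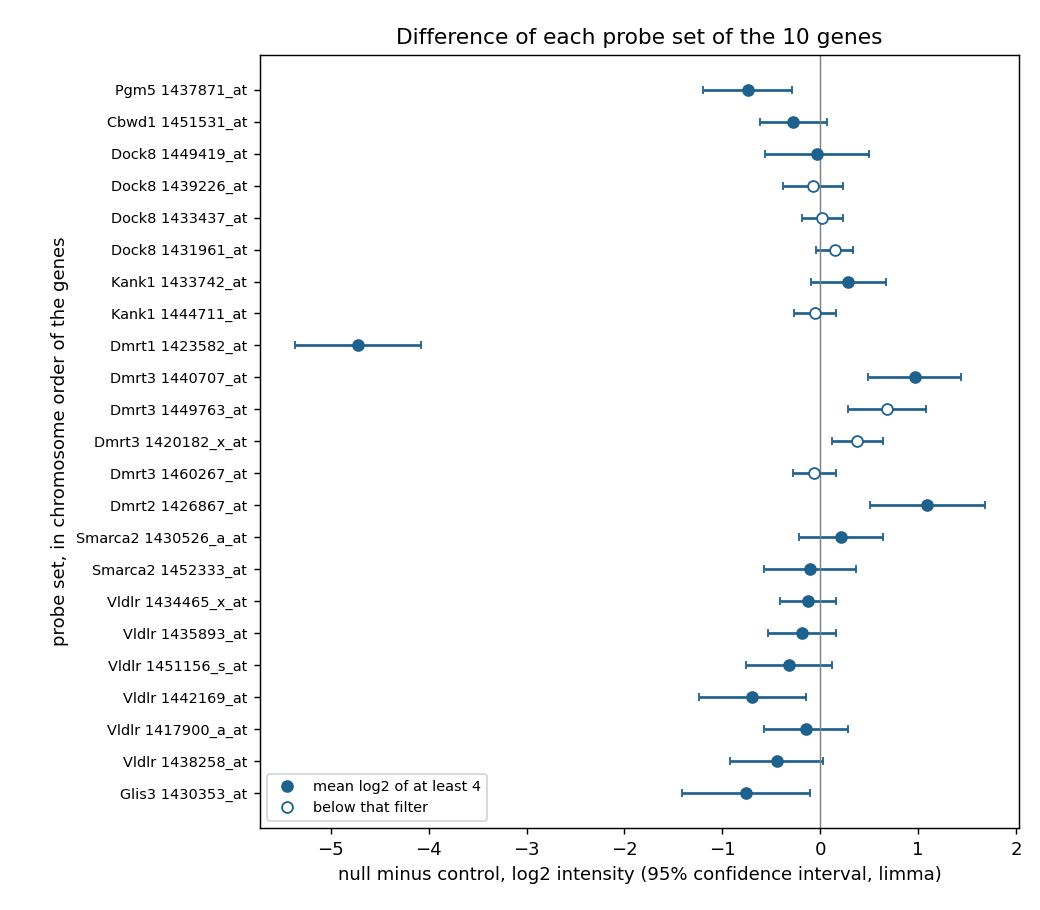
Null minus control difference in log2 intensity of all 23 probe sets of the 10 genes, in chromosome order of the genes from top to bottom, with 95% confidence intervals from limma (n = 3 per group). Filled points had a mean log2 intensity of 4 or more, and open points lay below that filter and come from the fit without it. Dmrt1 at -4.72 stands apart, the intervals of Dmrt2, of 3 Dmrt3 sets, of Pgm5, of Glis3 and of Vldlr 1442169_at leave out 0, and the rest include 0.

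Taking the 15 kept probe sets other than that of Dmrt1, 0 were called by limma and 5 had an unadjusted p under 0.05, which 6.04% of all kept probe sets had. These were Dmrt3 and Dmrt2 among those higher in null testes, and Pgm5, Glis3 and Vldlr 1442169_at among those lower. Groups did not overlap at 6 of the 15, the same 5 and Kank1, where 12.8% of all kept probe sets did not overlap. The median difference of the 15 was -0.14, and that of all kept probe sets was 0.01. Vldlr gave 6 of the 15, and the median of -0.14 was the value of its probe set 1417900_a_at. Read from the brightest kept probe set of each of the 10 genes, Dmrt1 included, 4 were higher and 6 lower. The median was then -0.08, against 0.03 for all genes read in this way. The genes were listed with earlier results of these arrays known, so these counts describe the list and test nothing about it.

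The other genes in the order around Dmrt1 were then read. The 15 protein-coding genes on each side of Dmrt1 comprised 21 genes other than the 10, of which 17 had a probe set with a single gene name and 11 had 1 that passed the filter. Among these 11, the brightest kept probe set of each had a difference between -0.16 and 0.33, with a median of 0.01. None of the 11 was called by limma (0, with 0 at an unadjusted p under 0.05), and 0 had groups that did not overlap. Over all genes read in this way, 6.44% had an unadjusted p under 0.05 and 13.1% did not overlap. With 11 genes, counts of 0 lie near these shares and do not set these genes apart. Pum3, Rfx3, Ak3 and Rcl1, all bright, had differences of -0.01, -0.08, 0.01 and 0.11. Along the rest of chromosome 19, groups did not overlap at 57 of 386 genes with a kept probe set, or 14.8%. The median difference there was 0.03. Limma called 0 of these genes, and 30, or 7.77%, had an unadjusted p under 0.05.

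Of the genes near Dmrt1 outside the list, each ranked by its brightest probe set alone, Slc1a1 and Kcnv2 had the smallest p. Both lay below the filter, so their p came from the fit without it. Slc1a1, a glutamate transporter, is the next gene after Glis3, and all 3 of its probe sets had every null array below every control array. Its brightest, 1448299_at, gave 12.2, 10 and 5.33 in null replicates 1, 2 and 3, against 34.6, 36.2 and 13 in control replicates 1, 2 and 3, a difference of -1.55 with a standard error of 0.44. The second, 1425415_a_at, gave 5.23, 4.66 and 3.34 in null arrays and 9.54, 19.5 and 10.4 in control arrays, a difference of -1.52 with a standard error of 0.28. The third, 1460386_a_at, had a difference of -0.36. In the limma fit without a filter the adjusted p was 0.878 for each Slc1a1 probe set, and 11% of all 45101 probe sets had groups that did not overlap. Kcnv2, a potassium channel subunit, had a difference of -0.17 with overlapping groups.

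**Figure D4:**
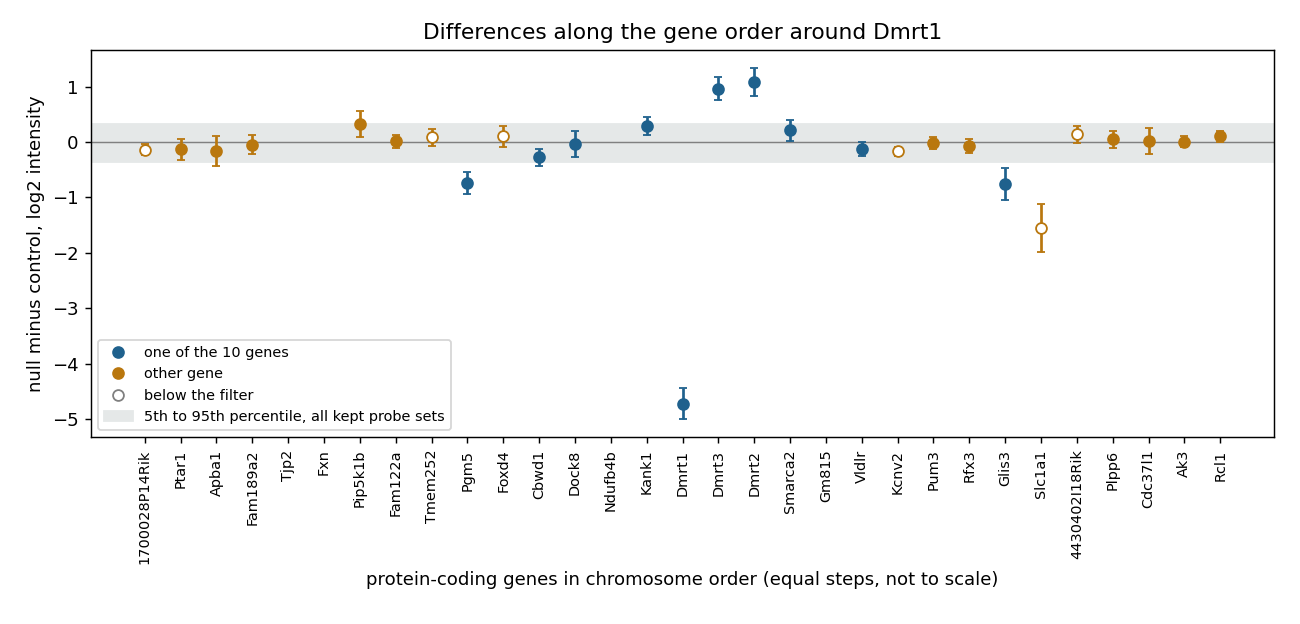
Null minus control difference in log2 intensity (error bars are standard errors from limma, n = 3 per group) along the order of protein-coding genes around Dmrt1, 15 on each side in equal steps, read from the brightest probe set of each gene. The grey band spans the 5th to 95th percentile of all kept probe sets, -0.36 to 0.33. Dmrt3 and Dmrt2 lie above the band and Dmrt1, Pgm5, Glis3 and Slc1a1 below it, while genes without a point had no probe set of a single gene name.

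The genes whose pattern over the 6 arrays came closest to that of Dmrt1 were found by the root mean square distance between log2 profiles, each centred on its own mean. They were Jakmip2, H2-Aa, Ret, Tox2 and Tmem130, at distances of 1.20, 1.25, 1.29, 1.42 and 1.46 log2 units. Their differences lay between -2.38 and -2.04, smaller in size than that of Dmrt1, and limma called H2-Aa and Tox2 among them. In null arrays the mean log2 values of H2-Aa, Jakmip2, Tmem130 and Ret were 3.06, 3.15, 3.53 and 3.87. These genes passed the filter at 4 only through the control arrays, with means of 5.30 to 6.21. Their differences and calls therefore lend no support of their own. None is on chromosome 19. Closest to Dmrt2 were Gja4, Cemip and Mmd2 at distances of 0.25 to 0.26, and closest to Dmrt3 were Agpat3, Spink4 and Tle6 at 0.16 to 0.19, with differences of 0.65 to 1.13 over these 6 genes. All were picked for their likeness over the same 6 arrays, and the 6 genes close to Dmrt2 and Dmrt3 were not called (limma adjusted p of 0.720 to 0.773).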

How the data were processed

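RNA from 6 fetal testis samples, 100 ng each, was amplified and labelled with biotin, per the labels' protocols. The authors deposited linear intensities from GCRMA, as the submitters' processing notes name it, with no version named. Per probe values and detection calls were not used here. Groups follow the sample titles.

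The log2 of each intensity was used as it stood. The 22082 probe sets averaging 4 or more were fitted in R 4.3.3 using limma 3.58.1, with group as the only term, an intensity trend in eBayes and two-sided tests at an adjusted p of 0.05. The fit was tested on simulated data with errors drawn independently for each probe set and array. In the real arrays deviations from the group means were shared, with a correlation of 0.58 between null replicate 1 and control replicate 2. The simulation does not cover such shared deviations. The platform annotation gave 34958 probe sets 1 symbol, 932 several and 9211 none. RefSeq (GRCm38.p6) was used for gene order and promoter sequences alone, since no source used here names the build behind the arrays.

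The 10 genes, the marker lists and the tests were chosen with earlier results of these data known. The genes named besides the 10 are the measured DM domain family, the genes of most similar pattern, and markers. Also named are the 2 genes within 15 genes of Dmrt1 whose brightest probe set had the smallest p. Pum3, Rfx3, Ak3 and Rcl1 were chosen as examples after their values were seen. Alternatives were no filter, a filter at 6, quantile normalization, median centring, 16 added, eBayes without trend or robust, the replicate number as a block, and leaving out each array. Between any 2 arrays 301 to 451 values coincided, so no 2 arrays were copies. Nothing in the labels says whether each array held separate animals beyond the words biological replicate, so p-values measure the spread between these samples.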

Additional observations from a re-analysis of the deposited data

How the results depend on the processing

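Dmrt1 was the single called member with no filter, a filter at 6, quantile normalization, median centring, 16 added, and eBayes without trend or with robust estimation, at differences of -4.73 to -4.14 and limma adjusted p of 0.00163 to 0.0338. Leaving out single arrays gave Dmrt1 differences of -5.03 to -4.52, with 0 to 1 members called, and the call was lost without control replicate 3. With the replicate number as a block, 0 members were called, and the Dmrt1 difference of -4.72 had a limma adjusted p of 0.200. The numbers did not pair the arrays: deviations from the group means correlated at -0.59, -0.34 and 0.14 over the 3 numbers, and 1 of 6 arrays correlated best with its own number. Over all probe sets 6 were called, against 1 without trend, 0 with the block and 0 to 4 with an array left out. Dmrt2 and Dmrt3 kept their direction and stayed uncalled in every alternative that could be run, and neither passed the filter at 6. In the pair of arrays sharing a number in their descriptions the Dmrt2 difference was 0.58, with no test. With single arrays left out the difference turned sign for Dock8 1449419_at (-0.27 to 0.13), Smarca2 1452333_at (-0.24 to 0.043) and Vldlr 1417900_a_at (-0.25 to 0.024). The cause was not tested. The number of arrays and the dimness of Dmrt2, Dmrt3 and Dock8 limit these values.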

Other observations

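Null replicate 2 and control replicate 3 share a leading number in their descriptions, which the sources used here do not explain. Within this pair alone, with no test, the log2 difference was -4.89 for Dmrt1, 1.03 for Dmrt3 and 0.58 for Dmrt2. Kank1 differed by 0.02 in the pair, against 0.29 over all 6 arrays. Pgm5 differed by -1.30 and Glis3 by -0.38 in the pair, against -0.74 and -0.76 over all arrays.

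Null replicate 1 had the highest value among null arrays at Dmrt1, Dmrt3, Dmrt2, Kank1, Pgm5 and Cbwd1, and the lowest at Smarca2 1430526_a_at and Glis3. The same array held summed fetal Leydig cell marker intensities of 12950, against 4182 and 3204 in null replicates 2 and 3 and 4024, 9430 and 10320 in control replicates 1, 2 and 3. Whether the 2 go together was not tested.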
